A study of Homo sapiens with 10 samples.

Results

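The step from FGF4 and BMP2 to HGF and KGF was described by setting the day 9 library of a hepatic differentiation course beside its day 7 library. The difference of log2(value + 1), day 9 minus day 7, was taken for every gene whose larger value on these days was 50 or more, which left 8585 of the 12125 genes in the table. The 3540 genes below that limit were not compared. The cells were of the established human embryonic stem cell line H1, grown as a monolayer and differentiated without serum. At day 7 they stood at the end of 4 days in RPMI/B27 with FGF4 at 30 ng per ml and BMP2 at 20 ng per ml, after 3 days in Activin A at 100 ng per ml. They then received HGF and KGF at 20 ng per ml each, in the same insulin-containing base, and the libraries of days 9 and 11 come from this medium. Days 13 and 21, used here as context only, carry the label OSM (oncostatin M, 20 ng per ml). The labels call the cells of days 7, 9 and 11 presumed hepatoblasts. Each day has 1 library of 1 cell line, so all differences below compare libraries and have no replicate check. The change of medium and the passage of 2 days cannot be told apart, because no library of cells kept in FGF4 and BMP2 until day 9 was analysed here.

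HGF (hepatocyte growth factor) signals through the receptor tyrosine kinase MET, and KGF (keratinocyte growth factor, the product of FGF7) through an epithelial splice form of FGFR2. FGF4 and BMP2 stand for the signals that the heart and the septum transversum mesenchyme give to the foregut when the liver forms. BMP receptors act through SMAD proteins on target genes such as the ID genes, and FGF receptors act through ERK on feedback inhibitors of the DUSP and SPRY families. In the embryo, hepatoblasts move into the septum transversum, a mesenchyme that later gives rise to stellate cells and fibroblasts of the liver.

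The deposited values are GC-normalised whole numbers and not read counts, and they do not show how deeply a given library was sequenced. The libraries have nearly the same distribution, with a median value of 82 at days 7, 9 and 11, and their highest values fall into 10 shared levels between 2164 and 18734. At days 7 and 9 each of these levels held 10 genes, so a value there follows the order of the genes. A fall from the maximum to the next level (6493 to 6502) is by itself more than 2-fold. Ratios that start or end on these levels carry the same limit. A gene at the maximum cannot rise further, and 7 genes held it at both days 7 and 9. Of the compared genes, 127 touched these top levels at day 7 or day 9.

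Markers set the label of the cells against the data. AFP, the fetal albumin-like protein, was at the maximum at days 7 and 9. HNF4A, a central hepatocyte factor, was at 1044 and 1021. TTR, a thyroid hormone carrier, went from 3430 to 18734 and APOA1 from 4855 to 3428. The 3 mesenchymal markers were all higher at day 9. On days 5, 7 and 9 COL3A1 was at 111, 2643 and 6502, LUM at 43, 145 and 2643 and ACTA2 at 12, 62 and 209. On the log2 scale COL3A1 and ACTA2 differed more from day 5 to day 7 (4.56 and 2.28) than from day 7 to day 9 (1.30 and 1.74). LUM went the other way, with 1.73 and then 4.18. Liver and mesenchymal RNA were thus found together at day 7 as well as at day 9. Of the endothelial markers, CDH5 went from 34 to 114 and TEK from 38 to 180. Of the blood markers, HBE1 went from 3 to 42, and PTPRC was listed at 0 on both days. SOX17 (72 and 20), CXCR4 (26 and 8), POU5F1 (88 and 21) and NANOG (32 and 7), which mark endoderm and stem cells, were lower at day 9. In bulk libraries, fewer cells of a type and less RNA per cell cannot be told apart.

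In this text a gene is called higher or lower only where it differed by at least 2-fold, that is by 1 or more on the log2(value + 1) scale. At day 9, 277 genes (3.23%) were higher and 222 (2.59%) lower than at day 7. At least 4-fold differences were found for 65 genes (0.757%) upwards and 21 (0.245%) downwards. Between days 9 and 11, within the HGF and KGF medium, 88 of 8444 genes (1.04%) were higher and 48 (0.568%) lower, with 9 genes (0.107%) past 4-fold in each direction. The median size of the difference was 0.264 from day 7 to day 9 against 0.181 from day 9 to day 11, and the 99th percentile was 1.99 against 1.14. The plot of difference sizes shows the same, with wider tails on both sides at the change of medium. This comparison shares the day 9 library with the one it is judged by. The preceding interval, days 5 to 7 within FGF4 and BMP2, held larger differences than either, with 674 genes (7.7%) higher and 556 (6.35%) lower of 8755. At least 4-fold differences there numbered 197 (2.25%) upwards and 117 (1.34%) downwards. More genes thus differed within FGF4 and BMP2 than across the change to HGF and KGF.

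Low values scatter more between libraries, so each gene was also set against genes of its own level. The limit was the 99th percentile of the size of the day 11 minus day 9 difference in 7 bands of mean log2 level, and it ran from 3.50 below a level of 5 to 0.846 between levels 8 and 9. Past this limit, 230 compared genes (2.68%) were higher and 158 (1.84%) lower at day 9. Day 11 minus day 9 itself gave 62 (0.734%) and 37 (0.438%). These shares were largely set in advance, because the limit is the 99th percentile of that same difference. Against a limit built the same way from days 5 and 7, only 21 genes lay outside in either direction. At the edge of the comparison, the 94 genes whose larger value was exactly 50 had differences between -2.50 and 3.67 with a median of 0, and the 56 genes at 49, just left out, lay between -1.40 and 5.64.

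**Figure D1:**
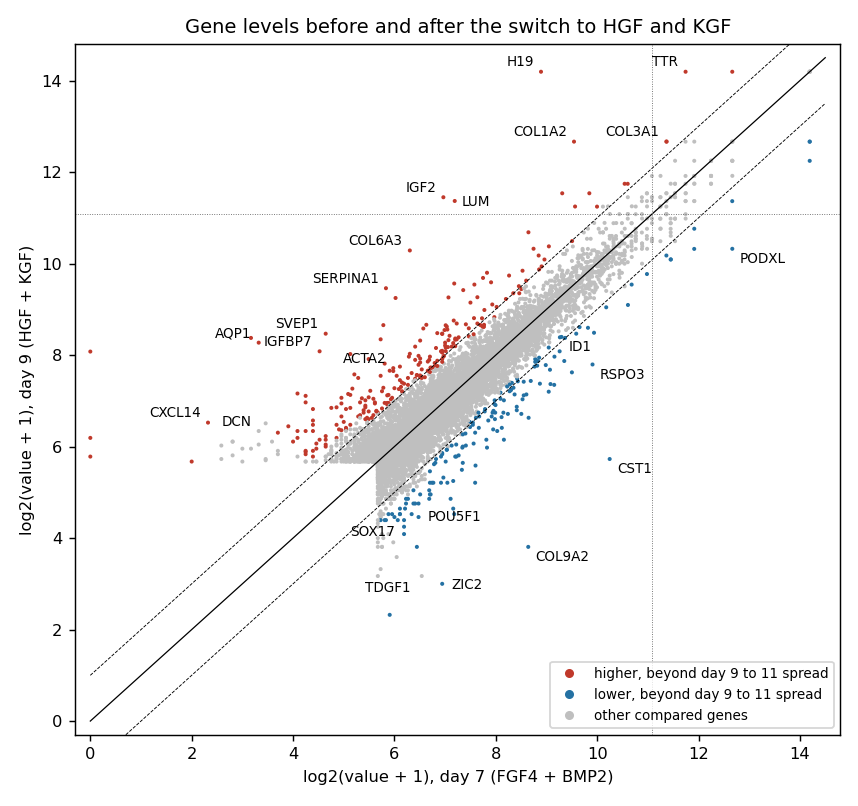
Each point is 1 of the 8585 compared genes, with log2(value + 1) at day 7 on the x axis and at day 9 on the y axis. The solid line marks equal values, the dashed lines 2-fold differences and the dotted lines the start of the shared top levels at 2164. Genes past the limit set by days 9 and 11 are red (230 higher) or blue (158 lower), and H19, IGF2, LUM and COL6A3 stand far above the line, CST1 and COL9A2 far below it.

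The higher genes had begun to climb before the switch and went on afterwards. Their median value was 32, 50, 144, 178, 222 and 187 on days 5, 7, 9, 11, 13 and 21. The lower genes had medians of 167, 108.5, 40.5, 35.5, 26 and 36.5 on the same days. Gene by gene, the median difference from day 5 to day 7 was 0.69 for the higher genes and -0.12 for the lower ones. It was 0.018 over all compared genes. For the 65 genes at least 4-fold higher it was 1.04, and for the 21 at least 4-fold lower it was -1.12. A choice of genes with high day 7 values draws this difference upwards, so it does not show whether the lower set was level before the switch. These differences share the day 7 library with the choice of the sets. Both sets were picked on days 7 and 9, so the gap between those days is a description, while the values of days 5, 11, 13 and 21 were not used to pick them.

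The 12 largest differences upwards held genes of growth control, matrix and transport, and all 12 passed the spread limit of their level. H19, an imprinted noncoding RNA on chromosome 11 (2016406 to 2019105 in the table's coordinates), went from 63 at day 5 and 474 at day 7 to the maximum of 18734 at day 9, where it stayed. IGF2, the fetal insulin-like growth factor (chromosome 11, 2150342 to 2158520), was at 124, 2796 and 6494 on days 7, 9 and 11, a ratio of 22.5 between days 9 and 7. AC132217.4, whose interval overlaps that of IGF2 on the same strand, was at 8, 331 and 890 on those days, and reads of these neighbours may have been split. AQP1, a water channel of epithelia and vessels, had 9, 308 and 779, a ratio of 34.2. The latter 3 genes kept climbing within the HGF and KGF medium.

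Matrix and surface genes filled most of the other places. LUM, a collagen-binding proteoglycan, was 18.2 times higher at day 9 than at day 7. COL6A3, a chain of type VI collagen, had 9, 78, 1248 and 1385 on days 5, 7, 9 and 11. SVEP1, an extracellular adhesion protein, had 24, 353 and 756 on days 7, 9 and 11. CXCL14, a chemokine, had 4, 91 and 186, and ENG, a TGF-beta co-receptor of endothelium and mesenchyme, had 3, 50 and 46. ENG lies at the edge of the comparison, with a larger value of exactly 50.

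The largest 3 of all on the log2 scale were listed at 0 at day 7, so no ratio is given. SLC2A2, the glucose transporter of hepatocytes, was listed at 0 from day 0 to day 7 and again at day 21, with 54, 37 and 43 on days 9, 11 and 13 in between. ZACN, a zinc-activated ion channel, was at 125, 0, 72 and 64 on days 5, 7, 9 and 11, so the zero of day 7 interrupts a gene seen on both sides of it. RP11-386G11.10, a clone-named gene that overlaps TUBA1B on the other strand, was at 269 at day 9 but at 44 at day 11. It thus fell by 2.58 on the log2 scale between days that share a medium.

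The 12 largest differences downwards held cartilage collagens, neural and stem cell genes and secreted proteins. COL9A2, a chain of type IX collagen, was at 1638, 398, 13 and 4 on days 5, 7, 9 and 11, a ratio of 30.6 between days 7 and 9. COL11A2, a chain of type XI collagen, had 138, 59, 4 and 6 on these days. CST1, a secreted cysteine protease inhibitor, had 6493, 1214, 52 and 12. All 3 had been highest at day 5 and were already lower at day 7, so the fall began before the switch. On the log2 scale its larger part came from day 7 to day 9. COL9A2 differed by -2.04 and then -4.83, CST1 by -2.42 and then -4.52, and COL11A2 by -1.21 and then -3.59.

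ZIC2, a zinc finger factor of early embryos, had 226, 122 and 7 on days 5, 7 and 9. TDGF1, the Nodal co-receptor also called Cripto, had 768, 92 and 8. RP11-148B6.1, which overlaps LARP7 on the other strand, had 876, 192 and 36 and was listed at 0 at day 11. These had been high in stem cells, with 434, 1044 and 630 at day 0. The other 6 of the list were GPR55 (144 at day 7, 22 at day 9), ECM1 (86, 13), JHDM1D (142, 24), RYR3 (50, 8), PCSK2 (65, 11) and RGAG1 (52, 9), with ratios between 5.78 and 6.62. Of these, GPR55, a lipid-responsive receptor, went on down to 2 at day 11, while JHDM1D, a histone demethylase, was at 30. Of the 12, 8 passed the spread limit, and TDGF1, RYR3, PCSK2 and RGAG1, low on 1 or both days, did not.

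**Figure D2:**
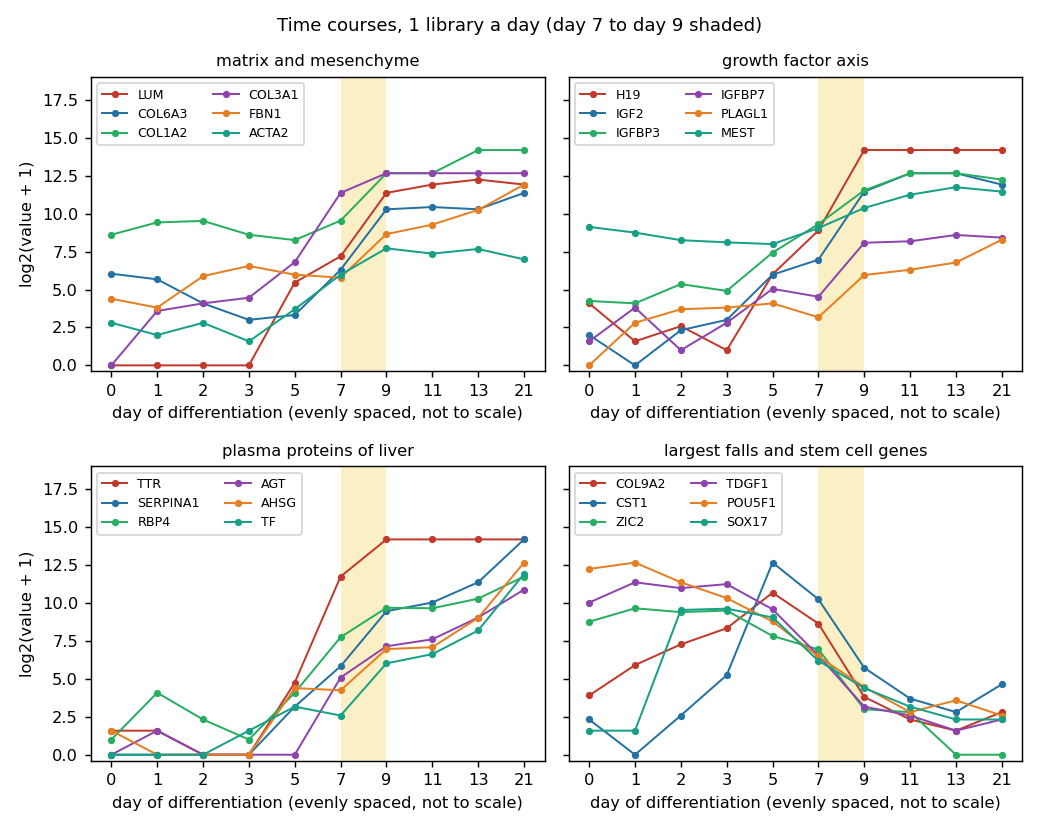
log2(value + 1) of 24 genes on the 10 days (x axis, evenly spaced and not to scale), 1 library a day, with the interval from day 7 to day 9 shaded. The matrix, growth factor and plasma protein genes climb through the shaded interval and mostly hold or extend their level, while the falling genes had started down by day 7.

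Genes of the stromal matrix, the collagens and proteoglycans that fibroblasts secrete, were higher as a group. Of 30 listed genes, 27 were in the table and 23 were compared, of which 15 were higher and 1 lower, against 3.23% and 2.59% of all compared genes, the shares against which each list count below is to be read. The spread limit was passed by 13 upwards and 1 downwards. Their median difference was 1.25, against -0.017 over all compared genes and 0.29 for the same 23 genes from day 9 to day 11. From day 5 to day 7 the median was 0.00, with 10 higher and 3 lower. The largest were LUM (4.18), COL6A3 (3.98), COL1A2 (3.12) and DCN (3.02). COL1A2, a chain of type I collagen, had 305, 745, 6496 and 6496 on days 5, 7, 9 and 11, a level of the shared scale. DCN, decorin, went from 30 and 9 to 80, 320 at day 11 and 2802 at day 13, so most of its climb came later, and at its low level it did not pass the spread limit. COL1A1, the partner chain of COL1A2, was at 1107 and 2426. POSTN, periostin, went from 62 to 124, a difference of 0.99 that just missed the 2-fold line. FBLN2, fibulin-2, was the exception, at 3428, 980, 358 and 210 on days 5, 7, 9 and 11. FN1 and SPARC stood at the maximum on both days, where no difference can show. The summed value of the 27 listed genes was 47939 at day 7 and 67151 at day 9. FN1 and SPARC, each at 18734 on both days, are part of both sums and draw their ratio towards level.

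LUM and DCN are neighbours on chromosome 12, 33.4 kb apart in the table's coordinates, and COL3A1 and COL5A2 (399 at day 7, 1644 at day 9) are 19.1 kb apart on chromosome 2. H19 and IGF2, the imprinted neighbours, are 131 kb apart. SERPINA1 and SERPINA5, protease inhibitors of plasma, are 191 kb apart on chromosome 14 and differed by 3.63 and 1.39. Among all genes called, 13 pairs within 200 kb were higher together and 11 were lower together. These include overlapping intervals, IGF2 with AC132217.4 and KIFC2 with FOXH1. The same count over all compared genes, and that of pairs in opposite directions, are not given here. The counts therefore do not show whether neighbours differed together more than other genes.

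Transcription factors of mesenchyme and septum transversum were divided. Of 30 listed, 12 were compared, with 6 higher and 1 lower, against 3.23% and 2.59% of all compared genes, and a median of 0.99. The same genes had a median of 1.03 with 6 higher from day 5 to day 7, as large as at the switch, and of 0.43 from day 9 to day 11. FOXF1, a factor of visceral mesenchyme, was listed at 0 through day 5, with 12, 78 and 125 on days 7, 9 and 11 after that. HAND1, a factor of lateral mesoderm, had 22, 226 and 890 on days 5, 7 and 9. MEIS2, a homeodomain partner of HOX proteins, went from 20 to 59 and ZEB2, a repressor of epithelial genes, from 28 to 72. SNAI2 (49 and 108) and TCF4 (86 and 188) were the other 2 higher genes. The GATA factors of endoderm and heart ran the other way, with GATA6 at 506 and 219 and GATA4 at 354 and 262. SNAI1, below the limit, had 47 and 20. Where the larger value had to be 200 or more, the median was -0.43, since of the higher genes only HAND1 passes that limit.

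Contractile genes of smooth muscle differed less. Of 12 compared, 3 were higher and none lower, with a median of 0.60. ACTA2, smooth-muscle actin, had 12, 62, 209 and 164 on days 5, 7, 9 and 11. SMTN, smoothelin, went from 44 to 134 and CSRP1, a cytoskeletal LIM protein, from 49 to 109. CALD1, caldesmon, and LPP went down by 0.26 each, well inside the spread between days 9 and 11. On the cell surface, 11 mesenchymal genes were compared, with 3 higher, 1 lower and a median of -0.10. CDH11, the cadherin of mesenchyme, had 40, 98, 404 and 804 on days 5, 7, 9 and 11. PDGFRB, a receptor of pericytes and stellate cells, had 53, 42, 128 and 202. PDGFRA, the related receptor, was at 286 and 252, and CDH2, neural cadherin, at 3431 and 2638. RGS5, a pericyte gene, was lower, at 1158 and 527. So matrix genes and a few surface genes were higher without a matching difference in every mesenchymal marker.

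Plasma proteins of the liver were higher over the same interval. Of 41 listed genes, 19 were compared, with 10 higher and 0 lower, against 3.23% and 2.59% of all compared genes, and a median of 1.14. The spread limit was passed by 9 genes, F2 (106 and 210, under 2-fold) among them, while TF and A2M (12 and 56) did not pass it. From day 5 to day 7 the median of these genes had been 2.66, and from day 9 to day 11 it was 0.12, so the largest step had come in FGF4 and BMP2. SERPINA1, the elastase inhibitor alpha-1-antitrypsin, had 8, 56, 704 and 1046 on days 5, 7, 9 and 11. TF, transferrin, the iron carrier, had 8, 5, 64 and 98, and AHSG, fetuin-A, had 20, 18, 124 and 135. Neither was higher at day 7 than at day 5. TTR reached the maximum. RBP4, the retinol carrier, was at 214 and 823, and AGT, angiotensinogen, at 33 and 141. ALB, albumin itself, was at 65 and 72, a difference of 0.15, and F7, a clotting protease, at 98 and 90. In the same libraries the summed value of the stromal matrix list, with FN1 and SPARC at the maximum on both days, went from 47939 to 67151. That of the endothelial list went from 804 to 1511, and the part of both lists in the plasma protein differences was not tested.

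Other hepatic groups moved little. Of 9 apolipoproteins and lipid carriers compared, only APOM, a carrier of sphingosine phosphate, was higher (198 and 412), and the median was 0.17. APOB was at 4856 on both days and APOA1 at 4855 and 3428. Of 18 hepatic transcription factors, 1 was higher and 1 lower, with a median of -0.03. The lower one was TBX3, a T-box factor that hepatoblasts use, which went from 768 to 353. CEBPA, a driver of the hepatocyte programme, had 10, 67, 130 and 219 on days 5, 7, 9 and 11, so that its difference of 0.95 stayed just under 2-fold. FOXA2 (343 and 210), FOXA3 (96 and 48) and HHEX (79 and 44), factors of foregut and early liver, were between 0.71 and 0.99 down. Of 11 hepatocyte enzymes and transporters, 2 were higher, SLC2A2 and the urea cycle enzyme ASL (37 and 82). ASS1, the enzyme before ASL in that cycle, was lower, at 956, 340, 110 and 102 on days 5, 7, 9 and 11. ALDH1A1, a retinal dehydrogenase, was at 876 and 527, and at 209 at day 11.

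Growth factor and imprinted genes held some of the largest single differences. Of 21 compared, 6 were higher and 1 lower, with a median of 0.53, and the summed value of the listed genes was 10834 at day 7 and 37532 at day 9. H19 alone, which reached the maximum, made up most of this increase, and without it the sums were 10360 and 18798. Besides H19 and IGF2 these were IGFBP7 (22 and 270), IGFBP3 (634 and 2969), which bind IGF or related ligands, PLAGL1 (8 and 61), an imprinted zinc finger factor, and MEST (528 and 1328), an imprinted gene of mesoderm. The family did not move as a block. IGFBP5 was lower, at 325 and 155, and IGFBP6 was at 604 and 366. PEG10, an imprinted retrotransposon-derived gene, was at 980 and 605, and GRB10, an imprinted inhibitor of insulin signalling, at 458 and 302. The receptors were closer to level, with IGF1R at 340 and 508, INSR at 98 and 122 and IGF2R at 958 and 891. CDKN1C, an imprinted cell cycle inhibitor, was at 1045 and 890.

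The receptors for the new factors were low or level. MET was at 2, 12, 26, 26 and 16 on days 5, 7, 9, 11 and 13 and so below the limit of 50 on all of these days. FGFR2 was at 346 and 236, and these gene-level values do not separate its KGF-binding form from the others. The table also holds the ligand genes, with HGF at 4 and 3 and FGF7 at 18 and 28. Of the 26 compared genes of HGF and KGF receptors and signal proteins, 2 were higher and 1 lower, and the median was -0.04. CD44, a hyaluronan receptor that acts as a co-receptor of MET, had 13, 52, 186 and 410 on days 5, 7, 9 and 11. SDC2, a heparan sulphate proteoglycan, was at 293 and 598. PLAU, the protease urokinase, which can activate HGF, was lower, at 246, 82 and 30 on days 7, 9 and 11. FGFR1 was at 3433, 3433, 2024, 853 and 346 on days 5, 7, 9, 11 and 13, so that it lost more within the HGF and KGF medium than at its start. The activators HPN (254 and 362) and ST14 (198 and 176) and the inhibitors SPINT1 (724 and 788) and SPINT2 (982 and 1000) stayed within 2-fold.

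Feedback targets of ERK were level or lower. Of 15 compared, 0 were higher and 2 lower, with a median of -0.24, against -0.30 from day 9 to day 11 and -0.47 from day 5 to day 7. DUSP4, an ERK phosphatase, had 350, 72, 16 and 8 on days 5, 7, 9 and 11. IL17RD, an inhibitor of FGF signalling, had 304, 102, 32 and 24. DUSP6, another ERK phosphatase, was at 840, 140 and 118 on days 5, 7 and 9, and SPRY4 at 363, 122 and 129. The drop of DUSP6 and SPRY4 therefore lay between days 5 and 7, while FGF4 was still present. ETV5 (65 and 99), an ETS factor downstream of FGF, and SPRY2 (309 and 341) were slightly up.

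The immediate early genes varied from library to library. FOS was at 33, 12, 59, 14 and 80 on days 5, 7, 9, 11 and 13. EGR1 was at 56, 80, 194, 19 and 219. Both counted as higher at day 9, and both were down again at day 11 in the same medium. ZFP36 (162 and 76) and BTG2 (224 and 70) were lower. Of the 13 compared, 2 were higher, 2 lower and the median was -0.27.

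Genes of the BMP pathway were lower on balance after BMP2 was withdrawn. Of 32 listed, 23 were compared, with 0 higher and 5 lower, against 3.23% and 2.59% of all compared genes. The spread limit was passed by 6, all downwards, these 5 and ID1, which differed by less than 2-fold. The median was -0.54, and 18 of the 23 were below 0. It was -0.33 from day 9 to day 11, and -0.04 from day 5 to day 7. Among the target genes, ID1 had 872, 628, 336, 210 and 91 on days 5, 7, 9, 11 and 13. ID3 had 1000, 530, 310, 204 and 103. ID4 had 146, 161, 62, 34 and 16. ID1 and ID3 declined at every step from day 5, before and after the withdrawal, whereas ID4 and ID2 (568, 1000 and 686 on days 5, 7 and 9) declined only from day 7.

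SMAD6, an inhibitor that BMP signalling induces, was at 584, 310, 169 and 128 on days 5, 7, 9 and 11, and its relative SMAD7 at 165, 265, 144 and 138. MSX2, a homeobox target of BMP, was lower, at 188 and 66. Only BMP7, a ligand, differed more among the compared genes of the list (124 and 39). The antagonists FST, follistatin (652 and 233), and BMPER (186 and 91) were also lower. BMP4, another ligand, went the other way, at 31, 137, 201 and 234 on days 5 to 11, and BMP2 itself, the gene of the factor that had been added, was at 424 and 378. FSTL1, a secreted BMP inhibitor, was at 852 and 1640, a difference of 0.94. BMP6, which the list did not hold and which was picked after its values were seen, was at 456, 400, 98 and 40.

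**Figure D3:**
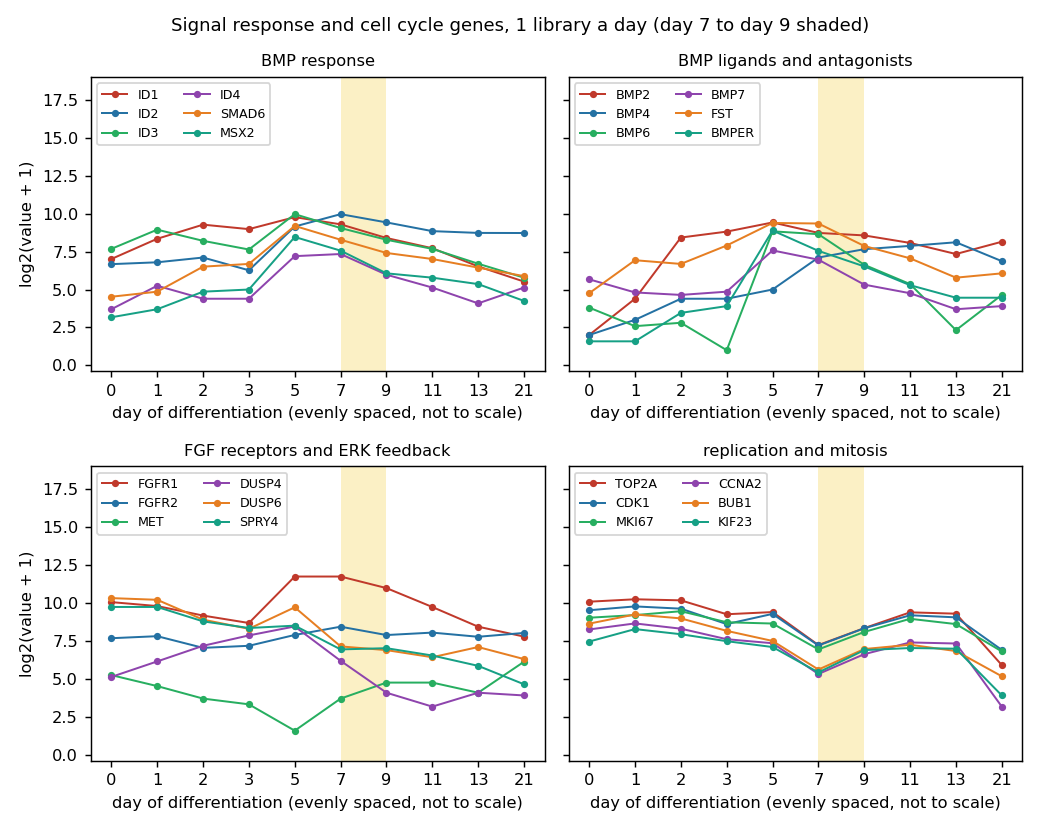
log2(value + 1) of 24 signal response and cell cycle genes on the 10 days (x axis, evenly spaced and not to scale), 1 library a day, with the interval from day 7 to day 9 shaded. The BMP targets decline from day 5 or day 7 on, and DUSP6 and SPRY4 drop before the shaded interval. Within days 5 to 11 the replication genes are at a low at day 7 and are back near their day 5 values at day 11.

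SMAD proteins bind short sequence elements, and the palindrome GTCTAGAC is one. Of the promoter windows in RefSeq (GRCh38.p14, the 250 bases before each annotated start), 0.182% hold it. Among the 21 compared BMP pathway genes with a window, SMAD6 alone does, 12 bases before its start. SMAD6 declined from day 5 to day 11, as ID1 and ID3 did. Its window (chr15:66701986-66702235, plus strand) is shown as the window that holds the palindrome, which capitals mark:
SMAD6: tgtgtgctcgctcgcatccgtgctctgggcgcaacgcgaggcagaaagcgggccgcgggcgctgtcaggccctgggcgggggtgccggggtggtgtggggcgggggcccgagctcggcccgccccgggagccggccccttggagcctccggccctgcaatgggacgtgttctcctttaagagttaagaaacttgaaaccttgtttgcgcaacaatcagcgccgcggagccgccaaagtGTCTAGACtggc
The shorter SMAD element GGCGCC was found in 8 of these 21 genes (38.1%), against 19% of all genes with a window, but also in 11 of 29 replication and mitosis genes (37.9%). Each match is a description of letters only.

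TGF-beta response genes were split. Of 14 compared, 4 were higher and 2 lower, with a median of 0.61 (-0.02 from day 9 to day 11). TGFBI, a matrix protein named for its induction by TGF-beta, had 38, 144, 756 and 1640 on days 5, 7, 9 and 11. CTGF, a matricellular growth factor, was at 130 and 393, TGFBR3, a co-receptor, at 143 and 431, and TIMP3, a metalloprotease inhibitor, at 76 and 180. SKIL, a SMAD co-repressor and textbook target, was lower, at 283 and 106, as was LTBP2 (50 and 18). TGFB1, the ligand gene, was at 186 and 124. Of the higher members, TGFBI, CTGF and TIMP3 are proteins of the matrix.

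Wnt response genes were few above the limit. Of 8 compared, 0 were higher and 2 lower. SFRP1 (527 and 146) and FRZB (2802 and 1090), secreted antagonists of Wnt, were the lower genes. WNT5A, a noncanonical ligand, was at 50 and 88 and AXIN2, a feedback target below the limit, at 16 and 23. RSPO3, a Wnt agonist outside the list that was picked after its values were seen, was at 298, 960, 221 and 96 on days 5, 7, 9 and 11.

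Some genes of earlier stages were lower. Of 10 pluripotency genes compared, 0 were higher and 4 lower, against 3.23% and 2.59% of all compared genes, with a median of -0.84 after -0.84 from day 5 to day 7. TDGF1 led, then POU5F1 (440, 88 and 21 on days 5, 7 and 9), L1TD1 (260, 50 and 14) and LIN28A (2970 and 1437). POU5F1 alone of these passed the spread limit. LIN28B, the paralogue of LIN28A, was at 226 and 218, and the telomere protein TERF1 at 149 and 170. Of 9 definitive endoderm genes compared, 2 were lower, SOX17 (530, 72 and 20) and GATA6, and the median was -0.71. From day 5 to day 7 these 9 had a median of 0.27, with 2 higher and 2 lower. APLNR, the apelin receptor, which vessels and mesoderm also use, was the only higher gene of that list, at 69, 190, 744 and 470 on days 5, 7, 9 and 11. NODAL, the ligand of the endoderm step, was at 104 and 52, and 11 of the 20 endoderm genes were below the limit on both days.

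Among markers of other cell types, the endothelial list had the most genes higher. Of 10 endothelial genes compared, 5 were higher and 0 lower, against 3.23% and 2.59% of all compared genes, with a median of 0.96, and the summed value of the 17 in the table was 804 at day 7 and 1511 at day 9. The spread limit was passed by 3, PLVAP, TEK and CDH5. PLVAP, a protein of fenestrated vessels, was at 0, 18, 137 and 152 on days 5, 7, 9 and 11. TEK, the angiopoietin receptor, was at 203, 38, 180 and 338, so that its day 9 value only regained that of day 5. CDH5, the cadherin of endothelium, was at 8, 34, 114 and 122, and KDR, a VEGF receptor, at 42, 270, 450 and 574. CD34, shared by vessels and stem cells of blood, was at 131 and 92. No endothelial gene of the table was at 0 at day 9, against 1 at day 7. From day 5 to day 7 the median of these 10 genes had been 1.89, larger than at the switch.

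Of 26 blood cell genes, 13 were in the table and 1 passed the limit, EPOR, at 60 on both days. The summed value of the 13 was 141 at day 7 and 282 at day 9, and 4 and 1 of them were listed at 0. Of 7 cardiac and mesothelial genes compared, 2 were higher and 3 lower. ACTC1, cardiac actin, was at 69, 1186, 2434 and 1280 on days 5 to 11, and LRRN4, a mesothelial gene, at 38 and 78. PODXL, podocalyxin, which stem cells, mesothelium and vessels carry, had 18734, 6498, 1280 and 696, and TNNC1, a troponin, 540, 153, 55 and 28. Of the neural genes only NES, nestin, passed the limit, at 527 and 286. The 3 HOX genes in the table, HOXB3 (8 and 28), HOXB6 (8 and 33) and HOXC8 (0 and 22), were all under the limit of 50. The part of these cell types in the differences of the matrix, growth factor and TGF-beta genes was not tested.

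Epithelial genes gave no 2-fold difference. Of 30 listed genes of simple epithelium, 21 were compared, and 0 were higher or lower, close to the 3.23% and 2.59% of all compared genes, with a median of -0.09. KRT8 was at the maximum on both days and KRT18 at 3860 on both. EPCAM was at 1108 and 956, and CDH1, E-cadherin, at 384, 237 and 316 on days 7, 9 and 11, a dip of 0.69 that was partly regained. The junction genes TJP1 (650 and 780) and PKP2 (606 and 745) were slightly up, and CLDN4 (169 and 111) and LAMA1 (3429 and 2164), a laminin chain, down.

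Genes of DNA replication and mitosis were all above their day 7 values, most by less than 2-fold. Of 36 compared, 36 had a difference above 0, 8 were higher and 0 lower, against 3.23% and 2.59% of all compared genes, and 7 passed the spread limit, against 2.68% upwards over all. The median was 0.67. From day 5 to day 7 the median was -1.23, and from day 9 to day 11 it was 0.47, so day 7 was a low point within days 5 to 11. The day 7 library is shared by the first of these differences and that of days 9 and 7. At day 21 the median log2 level of these genes was lower still, 5.25 against 6.52 at day 7. TOP2A, a topoisomerase of dividing cells, had 676, 149, 324 and 668 on days 5, 7, 9 and 11. CDK1, the mitotic kinase, had 622, 146, 322 and 584, and MKI67, the proliferation antigen Ki-67, had 400, 122, 272 and 497. By day 11 these 3 were near or above their day 5 level. KIF23, BUB1 and CCNA2, genes of mitosis, gave the largest differences (1.47, 1.35 and 1.31). The replication licensing genes MCM2 (314 and 372) and MCM7 (492 and 550) stayed within 2-fold. Of 14 inhibitors of G1 and targets of p53, 12 were below 0, with 0 higher, 1 lower (TP53INP1, 219 and 108) and a median of -0.35. CDKN1A, p21, was at 300, 58, 68 and 113 on days 5 to 11.

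The promoters of these cell cycle genes share a letter pattern that the choice of genes did not use. CCAAT, the box bound by NF-Y, was searched on both strands, where it reads ATTGG on the other, in the 250 bases before the start. It was found in 22 of the 29 replication and mitosis genes with a window (75.9%), against 37% of all genes with one. Plasma protein genes held it in 11 of 16 (68.8%) and stromal matrix genes in 3 of 14 (21.4%). The windows of TOP2A (chr17:40417897-40418146, minus strand) and MKI67 (chr10:128126424-128126673, minus strand) are shown with each box in capitals, to show how the box repeats:
TOP2A: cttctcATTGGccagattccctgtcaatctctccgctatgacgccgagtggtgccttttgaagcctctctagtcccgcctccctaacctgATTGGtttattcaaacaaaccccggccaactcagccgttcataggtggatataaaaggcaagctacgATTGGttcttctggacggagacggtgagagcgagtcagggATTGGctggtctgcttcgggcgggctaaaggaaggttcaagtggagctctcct
MKI67: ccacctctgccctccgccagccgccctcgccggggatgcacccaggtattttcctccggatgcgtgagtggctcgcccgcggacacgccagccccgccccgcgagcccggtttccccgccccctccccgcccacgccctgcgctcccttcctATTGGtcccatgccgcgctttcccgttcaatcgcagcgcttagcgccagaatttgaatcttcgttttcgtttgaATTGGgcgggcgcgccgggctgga
TOP2A holds 4 boxes, between 53 and 244 bases before the start, and MKI67 holds 2, at 24 and 98 bases, and each one shown reads ATTGG.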

How the data were processed

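RNA-seq of H1 cells was analysed for days 7, 9, 11 and 5, with the libraries of the other days as context, 1 library a day. The submitters' processing notes name RSEM 1.2.17, Bowtie2 2.2.0 and the builds hg19 and mm10, without saying which build the intervals use. The values the authors deposited are scores, whole numbers left after their GC normalisation with EDASeq, and not counts, so no count test or interval was possible, and they do not show how deeply a given library was sequenced. Here the difference of log2(value + 1) was computed with Python 3.11.15, numpy 2.4.6 and pandas 2.3.3 and plotted with matplotlib 3.10.9, and it understates the change of low genes. No test between days can be made with 1 library a day. The code was tested on simulated data. The genes compared and the 31 gene lists (577 of their 780 genes were in the table) were chosen with earlier results of these data known. Genes named include the 12 largest differences in each direction, the markers, the largest members of each list in either direction and the genes of the signals changed. Other genes, list members such as ALB and FN1 among them, are named as well, and not all of these are marked. Day 13 is labelled OSM, although the stated step lengths put the end of HGF and KGF there. Promoter windows are from RefSeq (GRCh38.p14). Some genes on the lists were not analysed here, and a few single genes are not reported.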

Additional observations from a re-analysis of the deposited data

How the results depend on the processing

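No paired analysis was possible because each day has 1 library, and no replicate could be left out. The alternatives were other pseudocounts (0.1, 5 and 10), scalings, limits on low values, removal of genes in the top levels, the mean of days 9 and 11 against that of days 5 and 7, and other limits of spread. Genes higher numbered 277 as reported, 502 with a larger value of 20 or more, 111 with 200, 664 without a limit and 559 with the means of days. Genes lower numbered 222, and 380, 72, 517 and 338 in that order. Genes past the spread limit numbered 388, and 212 with a larger value of 200, 1286 with the 95th percentile and 21 with days 5 and 7 as the measure. The share of higher among called genes was 55.5%, 60% under the median of ratios, which shifted the differences by a median of 0.03, 60.7% with a larger value of 200 and 62.3% with the means of days. Of the list medians, 227 moved by less than 0.181, the median size of the day 11 minus day 9 difference, 36 moved more and 3 turned from a median beyond that size to the other sign. For named genes the measure was the spread limit of the gene's level, within which 295 values stayed and beyond which 16 moved. Counting every sign, 16 values of 10 list medians and 1 of a named gene (HNF4A, means of days, 0.79) changed it. The 3 were mesenchymal transcription factors at 200 (-0.43), hepatocyte enzymes at 200 (-0.73) and matrix remodelling with the means of days (-0.10). The cause was not tested beyond the fewer genes left at 200.

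With the means of days, the medians were 1.77 for stromal matrix, 1.60 for mesenchymal transcription factors, 0.52 for mesenchymal surface, 2.89 for plasma proteins, 1.93 for apolipoproteins, 0.46 for hepatic transcription factors, 1.17 for hepatocyte enzymes and for the retinoid list, -0.94 for ERK feedback, -0.44 for definitive endoderm, -1.27 for pluripotency, 1.97 for endothelium, -0.71 for cardiac genes and 0.29 for replication. With a larger value of 200 they were 0.16 for smooth muscle, -0.28 for HGF and KGF receptors, -0.49 for definitive endoderm and -0.55 for G1 inhibitors. With 20 they were 0.47 for mesenchymal surface, 0.48 for apolipoproteins, -0.35 for BMP, 0.16 for TGF-beta, -0.34 for Wnt, -0.97 for definitive endoderm and 0.42 for cardiac genes. Without a limit they were 0.80 for smooth muscle, 0.51 for mesenchymal surface, 0.51 for apolipoproteins, 0.45 for hepatocyte enzymes, -0.29 for BMP, -0.37 for Wnt, -0.97 for definitive endoderm and 0.21 for cardiac genes. Without the top levels they were 0.25 for mesenchymal surface, 0.56 for apolipoproteins and 0.31 for the IGF list.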

Other observations

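Of 23 glycolysis and hypoxia genes compared, 1 was higher and 3 lower, with a median of 0.16, against 3.23% and 2.59% of all compared genes. ALDOC, an aldolase of brain and fetal tissue, was at 28, 122, 353 and 368 on days 5, 7, 9 and 11, and SLC2A1, the common glucose transporter, at 902 and 1737, under 2-fold. SLC2A3, the high-affinity transporter of stem cells, was lower, going from the maximum to 6495, the next level of the shared scale. The neuronal enolase ENO2 (148 and 54) and the vasoactive peptide ADM (724 and 196) were also lower. ENO1 and LDHA, enzymes of the main pathway, were at 3864 and 6498 and at 304 and 484. The 27 cholesterol and fatty acid genes stayed near level, with a median of 0.07, 0 higher and 1 lower, INSIG1 (132 and 63), the brake on sterol synthesis. Of its enzymes, MVK (60 and 106), MVD (244 and 395) and LSS (612 and 934) were up by less than 2-fold.

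Of 22 genes of matrix remodelling compared, 4 were higher and 1 lower, with a median of 0.21. MMP2, a gelatinase, was at 239 and 770, ADAMTS1 at 149 and 412 and ADAMTS9 at 243 and 550, both proteases of proteoglycans, with TIMP3 as above. Basement membrane chains went down or stayed level, with LAMB1 at 18734 and 6496 and COL4A1 at 6499 and 4861, all on shared levels of the scale, while COL4A2 was at 2969 and 3430. Of 21 heat shock and unfolded protein genes, 2 were higher, HSPB1 (57 and 138) and HSPA1A (61 and 133), with a median of 0.10. HSPA1A has a near-identical copy, HSPA1B (221 and 224), between which reads can be split. In the retinoid list, 2 of 9 were higher, among them the carrier RBP4, and the median was 0.06. The foregut list had 4 compared genes, 0 higher and 1 lower (OTX2, 68 and 22), and CDX2, an intestinal factor, was at 48, 116, 136 and 138 on days 5 to 11.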
